A study of Mus musculus with 2 samples.

Results

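Spi1, Cebpa, Cebpb, Maf, Bhlhe40, Batf3, Zbtb46, Id2 and Tcf4 are 9 genes, of 31253 listed, that encode transcription factors or a partner of such factors in the myeloid and dendritic lineages. They were chosen by name, with earlier results of these data known. Their transcripts were followed through the immune cells of B16-F10 melanoma, a transplantable mouse skin tumor line. The data are 2 single-cell RNA libraries of sorted Cd45+ cells, labelled Irg1+/+ and Irg1-/-. Each library held tumors of 3 pooled C57BL/6 mice, female and 8 to 10 weeks old, taken 10 days after subcutaneous injection of 200000 cells. By its label the Irg1-/- genotype lacks Irg1 (Acod1), the enzyme that makes itaconate, in all cells, so a difference between the libraries is not tied to the cells that express it. With 1 library for each genotype and no separate animals, no test between genotypes could be made. All intervals below are 95% intervals that cover counting error only.

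PU.1, encoded by Spi1, is required for the myeloid lineage as a whole, and the C/EBP factors act with it in monocytes, macrophages and granulocytes. c-Maf is a macrophage factor, Batf3 is needed for the conventional dendritic cells that cross-present antigen (cDC1), and Zbtb46 marks the conventional dendritic lineage. Id2 is an inhibitor of E proteins that is needed in conventional dendritic cells, while the E protein E2-2, encoded by Tcf4, directs the plasmacytoid dendritic cell (pDC).

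After cells with 10% or more mitochondrial unique molecular identifiers (UMIs) were left out, 6284 cells with 42105693 UMIs stood in the Irg1+/+ library and 5794 cells with 35307041 UMIs in the library labelled Irg1-/-. The median cell held 4528 and 4594.5 UMIs. Cells were put into groups by markers that did not include any of the 9 genes, and 2608 and 2568 cells fell into 16 myeloid and dendritic groups. All names below are names of these marker gates and are to be read as monocyte-like, macrophage-like and so on, since no deposited annotation was used. The rule that turned marker scores into groups was set after the data had been seen. Classical monocytes, with 432 and 506 cells, and mature dendritic cells (mature DC), with 357 and 295, were the largest groups in both libraries. cDC1 held 309 and 200 cells, cDC2 155 and 210, and macrophages marked by Vegfa 273 and 157. The pDC gate held 60 and 48 cells, Lyve1 macrophages 18 and 53, and Retnla macrophages 21 in each library. A further 1321 and 1190 cells, 21.0% and 20.5%, fell in no gate. Monocytes that passed no state gate are the classical monocytes. Another 175 and 268 monocytes passed the MHC class II, Mrc1, cycling or Retnla state. A further 220 and 243 macrophages passed no state or only the interferon-activated one. These cells are in none of the 16 groups. The Vegfa, Mgl2 and Lyve1 macrophage groups took cells of the monocyte class as well as of the macrophage class. The other macrophage groups took the macrophage class alone. How many monocyte-class cells these groups hold is not given here. Cells just above the gate's threshold score numbered 59 and 34 in Vegfa macrophages, 9 and 19 in eosinophils, 24 and 51 in cDC2 and 21 and 22 in mature DC, and in pDC 1 and 0.

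The markers below also set the gates, so their levels describe the gates and are no separate check of the names. All 7 markers of the neutrophil gate, all 6 of the eosinophil gate and all 6 of the pDC gate were highest in their own class in both libraries. Exceptions were Ly6c2 and Hp, and F13a1 in the Irg1+/+ library, for monocytes, Pglyrp1 for nonclassical monocytes, Adgre1 for macrophages, Cadm1 for cDC1, Flt3 and H2-DMb2 for cDC2, and Il4i1 for mature DC in the library labelled Irg1-/-, which were highest elsewhere. Neutrophils and eosinophils were shallow, with medians of 1740.5 and 1824 UMIs and of 805 and 1054.5 UMIs. The libraries shared 36 cell barcodes, and no doublets were removed.

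The targeted gene was detected in both libraries. Acod1 had 3696 UMIs in the Irg1+/+ library, a level of 87.8 CPM (UMIs scaled to a common library total), and 3805 UMIs in the library labelled Irg1-/-, 107.8 CPM. The log2 ratio over all cells, with group sizes not held, was 0.30 (0.23 to 0.36), but each of the 6 groups examined had the lower level in the library labelled Irg1-/-. Neutrophils gave 2437 and 1954 CPM, eosinophils 994 and 515 CPM, interferon-activated monocytes 479 and 279 CPM and Vegfa macrophages 244 and 160 CPM, with counting intervals that did not overlap in any of these 4. Classical monocytes gave 81.6 and 71.6 CPM and T cells 31.8 and 28.6 CPM, with intervals that did. Which part of the gene the knockout removes is not given in the sources used here, so these counts do not check the genotype, and the genotypes below are those of the labels.

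Each of the 9 symbols had the same Ensembl identifier in the count tables and in the GENCODE annotation of GRCm38. Spi1 lies on chromosome 2 at 91082390 to 91115756 and Cebpb on the same chromosome at 167688915 to 167690418, both on the plus strand. Cebpa lies on chromosome 7 at 35119293 to 35121928 (plus), Maf on chromosome 8 at 115682942 to 115707794 (minus) and Bhlhe40 on chromosome 6 at 108660629 to 108666925 (plus). Batf3 lies on chromosome 1 at 191097847 to 191108945 (plus), Zbtb46 on chromosome 2 at 181387762 to 181459426 (minus) and Id2 on chromosome 12 at 25093799 to 25097140 (minus). Genes on the opposite strand overlap Cebpa (Gm45091), Cebpb (Tmem189), Maf (Gm15655) and Bhlhe40 (0610040F04Rik), and small genes on the same strand overlap Zbtb46 (Gm22708) and Tcf4 (Gm24845). Whether the counting used strand is not given in the sources used here, so reads shared with these neighbours cannot be told apart. No gene overlaps Spi1, Batf3 or Id2.

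**Figure D1:**
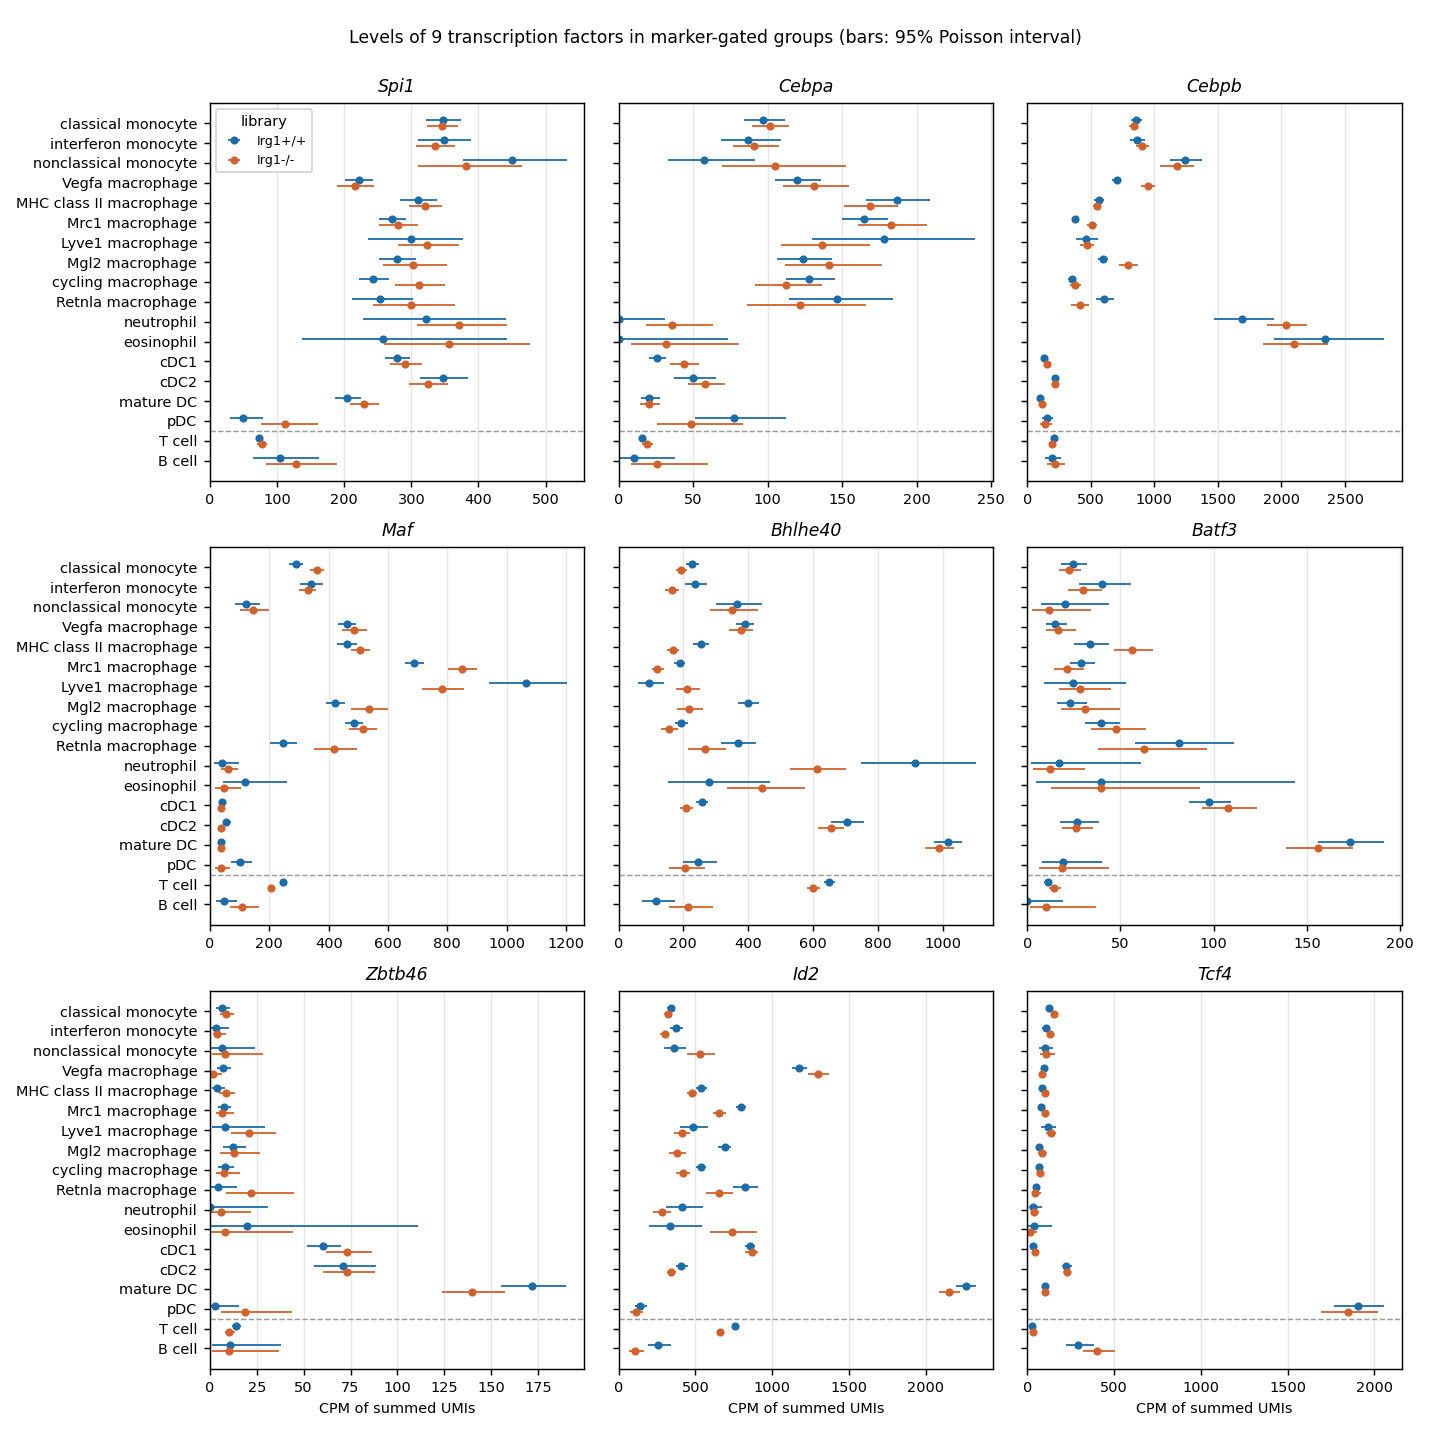
Level of each of the 9 genes (x axis, CPM of the summed UMIs, each panel on its own scale) in 16 myeloid and dendritic groups and in T and B cells (y axis), for the Irg1+/+ library (blue) and the library labelled Irg1-/- (orange). Points are the summed level of 1 library and bars its 95% Poisson interval. Tcf4 stands at 1906 and 1850 CPM in pDC and at 227 CPM or less in every other myeloid or dendritic group, while Spi1 lies between 205 and 450 CPM in all of these groups but pDC.

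Spi1 had UMIs in every myeloid and dendritic group, with its low point in pDC. Its highest level in both libraries was that of nonclassical monocytes, 449.7 CPM (377 to 533) in the first and 381 CPM (310 to 465) in the second. In the Irg1+/+ library this was above the next group by 0.37 on the log2 scale, beyond counting error, but in the library labelled Irg1-/- the nearest group, neutrophils at 370 CPM, lay within it. Classical monocytes (347 and 346 CPM), interferon-activated monocytes (348 and 335) and cDC2 (348 and 325) were level with each other in both libraries. Mature DC (205 and 229 CPM) and Vegfa macrophages (222 and 215 CPM) stood lower. pDC were lowest, with 18 UMIs in 60 cells (49.9 CPM, 29.6 to 78.8) and 30 UMIs in 48 cells (112 CPM, 75.8 to 160). T cells, in which PU.1 is known to be low, gave 73.5 and 77.3 CPM, and NK cells 46.6 CPM on 51 UMIs and 65.8 CPM (54.9 to 78.3) on 127 UMIs. These levels limit what can be read from the counts in pDC, and the part of free RNA in them was not tested. With each cell thinned to 2000 UMIs, 7.14% and 11.1% of pDC held a Spi1 UMI, against 12.7% and 12.9% of T cells and 50.4% and 49.2% of classical monocytes. Before thinning the shares were 20% and 39.6% of pDC (medians of 5465 and 4976.5 UMIs), 30.2% and 32.8% of T cells (3984.5 and 3510) and 72.0% and 72.9% of classical monocytes (4692.5 and 4980). In the Irg1+/+ library the pDC level of Spi1 was thus under that of T cells and close to that of NK cells. In the other library it was higher than both, with an interval that overlapped theirs. Overlap does not show that the levels are equal, and no ratio between these groups was taken.

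Some genes known as PU.1 targets were also low in pDC. Of 14 tested, 6 were lower by a fold of 2 or more in pDC than in the other myeloid and dendritic groups in both libraries, among them Csf1r, Csf2ra, Itgam, Fcgr3 and Lyz2. Across 9287 genes tested, 11% were lower by that measure and 9.95% higher. Csf1r, the receptor for the macrophage growth factor, gave 213 and 142 CPM in pDC, and Itgam, the CD11b integrin chain, 105 and 63.7 CPM. Cybb, the catalytic subunit of the phagocyte oxidase, went the other way, at 1842 and 2135 CPM. The median log2 fold of the 14 genes was -0.86 and -1.01, against 0.08 and 0.10 for all genes. In nonclassical monocytes 2 of the 14, Csf1r (1410 and 1343 CPM) and Cybb (2356 and 2596 CPM), were higher and none was lower, where 3.53% of all genes were higher and 6.37% lower. Of 20 transcription factors of monocytes and macrophages, 4 were higher there: Nr4a1, the factor that nonclassical monocytes need (2144 and 1923 CPM), Pparg (97.3 and 160), Rara (141 and 163) and Spic, on 8 UMIs in each library. Tfec was lower, with 1 UMI in each library.

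Cebpa and Cebpb, though both encode C/EBP factors, had different high points. Cebpa was highest in macrophage groups and was also found in monocytes. MHC class II macrophages gave 187 CPM (166 to 209) and 168 CPM (151 to 187), and Mrc1 macrophages 165 CPM (150 to 181) and 183 CPM (161 to 207), and these groups were not apart beyond counting error in either library. Lyve1 macrophages gave 178 and 136 CPM, on 44 and 86 UMIs. Classical monocytes stood at 97.2 and 101 CPM and interferon-activated monocytes at 87.0 and 91.0 CPM, above T cells. Mature DC gave 20.7 and 20.5 CPM, close to the 16.0 and 19.4 CPM of T cells. Neutrophils had 0 UMIs in the Irg1+/+ library, which allows up to 25.4 CPM, and 12 UMIs, 36.1 CPM, in the library labelled Irg1-/-. Eosinophils had 0 UMIs, which allows up to 59.6 CPM, and 4 UMIs, 31.7 CPM. Mature granulocytes are known to have little Cebpa, the factor of their progenitors. Relative to the other myeloid and dendritic groups together, MHC class II macrophages were 2.04-fold and 1.90-fold higher.

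Cebpb, the C/EBP factor of inflammatory and emergency responses, was instead highest in granulocytes. Eosinophils gave 2345 CPM (1941 to 2809) and 2100 CPM (1855 to 2368), and neutrophils 1692 CPM (1466 to 1944) and 2039 CPM (1888 to 2198). These 2 groups were apart beyond counting error only in the Irg1+/+ library, and both were above nonclassical monocytes (1245 and 1175 CPM) in each library. Classical and interferon-activated monocytes stood between 837 and 906 CPM. Vegfa macrophages, with 704 and 949 CPM, were under these monocytes in the Irg1+/+ library, not in the other, and above Mrc1 macrophages, with 376 and 510 CPM. The Vegfa gate also took cells of the monocyte class. Macrophage markers summed to 4481 and 5829 CPM in it, against 11149 and 12136 CPM in Mrc1 macrophages. The dendritic groups were lowest. Mature DC (104 and 116 CPM) and cDC1 (129.8 and 156 CPM) lay under the 208 and 193 CPM of T cells, and cDC2 (220 and 216 CPM) near it. In cells of 2000 thinned UMIs, 93.8% of 16 and 90.3% of 62 neutrophils held a Cebpb UMI, against 17.6% and 18.7% of mature DC and 33.4% and 31.4% of T cells. Without thinning these were 96.3% and 87.4%, 38.4% and 45.8%, and 55.2% and 55.7%. No Irg1+/+ eosinophil and 4 eosinophils of the other library were deep enough to be thinned, so their level rests on shallow cells.

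Of 6 C/EBP target genes tested in neutrophils (4 more of the list were gate markers), 5 were higher there by a fold of 2 or more in both libraries, where 5.97% of all genes were higher and 19.8% lower. Il1b, the inflammatory cytokine, gave 7802 and 13654 CPM, Il1rn, its receptor antagonist, 4036 and 4123 CPM, and Lcn2, an iron-binding granule protein, 288 and 298 CPM. Cd14 and Ptgs2 were the other two. Il6 had 0 UMIs in the neutrophils of both libraries, and its level there is only known to be at most 25.4 and 9.03 CPM. In eosinophils, where Cebpb was as high, none of the 6 was higher and 1, Cd14 (139 and 238 CPM), was lower, against 7.75% higher and 7.65% lower among all genes. The gates do not separate activation states of these granulocytes, and whether such states differ between the groups was not tested. The granulocyte factors Cebpe, Gfi1, Gata1, Gata2 and Klf5 had too few UMIs for a comparison between groups. Gata1, the eosinophil factor, had 3 and 12 UMIs in eosinophils.

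Maf was highest in Lyve1 and Mrc1 macrophages. Lyve1 macrophages gave 1065 CPM (940 to 1202) on 18 cells and 782 CPM (715 to 855) on 53 cells. Mrc1 macrophages gave 689 CPM (658 to 721) and 849 CPM (801 to 899). The order of these 2 groups was Lyve1 first in the Irg1+/+ library, beyond counting error, and Mrc1 first in the library labelled Irg1-/-, within it. MHC class II macrophages (461 and 507 CPM) and Vegfa macrophages (461 and 486 CPM) were level with each other, and classical monocytes stood at 289 and 361 CPM. Retnla macrophages, with 246 CPM (204 to 294) and 418 CPM (350 to 495) on 21 cells each, were under interferon-activated monocytes (341 CPM) in the Irg1+/+ library and above them (329 CPM) in the other. Nonclassical monocytes, at 121 and 144 CPM, were well below classical ones, in contrast to their order for Spi1 and Cebpb. cDC1 and mature DC gave 35.9 to 40.1 CPM, at or under the 47.3 and 108 CPM of B cells. T cells, some of which are known to use c-Maf, gave 247 and 206 CPM. A Maf UMI was found in 63.3% and 74.1% of Mrc1 macrophages thinned to 2000 UMIs (89.1% and 93.5% before), in 7.49% and 4.60% of cDC1 (25.6% and 20% before) and in 10.3% and 8.89% of B cells (9.59% in both libraries before, at medians of 2085 and 2190 UMIs).

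Genes linked to Maf in macrophages followed it into the Mrc1 group. All 5 that were not gate markers were higher there by a fold of 2 or more in both libraries, where 2.54% of all genes were higher and 5.19% lower: Il10, Selenop, Mertk, Gas6 and Stab1. Mertk, a receptor for the uptake of dying cells, gave 85.0 and 85.5 CPM, Gas6, its ligand, 141 and 62.6 CPM, and Stab1, a scavenger receptor, 495 and 324 CPM. Their median log2 fold was 2.06 and 2.15, against 0.03 and 0.04 for all genes. The list held 13 genes, and the 8 left out were used to set gates. Of the 20 monocyte and macrophage factors, Pparg, Spic and Bhlhe41 were higher in the Mrc1 group and none was lower. The melanocyte gene Gpnmb, which macrophages also express, was the most abundant of 6 melanocyte markers there (621 and 373 CPM of a summed 806 and 486 CPM).

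Bhlhe40, a basic helix-loop-helix repressor that cytokines and other stimuli induce, was shared by mature DC, neutrophils and cDC2. Mature DC gave 1016 CPM (974 to 1059) and 989 CPM (945 to 1034). Neutrophils gave 914 CPM (750 to 1103) and 611 CPM (530 to 701), and cDC2 704 CPM (654 to 756) and 655 CPM (615 to 697). In the Irg1+/+ library mature DC and neutrophils were not apart beyond counting error, and in the library labelled Irg1-/- neutrophils and cDC2 were not. cDC1 stood far below cDC2, at 257 and 209 CPM, and Mrc1 macrophages at 189 and 119 CPM. Lymphocytes also hold this transcript, with 805 and 862 CPM in NK cells and 651 and 601 CPM in T cells, so B cells, at 116 and 215 CPM, serve as the comparison. Their level is not a floor, since cycling and Mrc1 macrophages stood lower (156 and 119 CPM) in the library labelled Irg1-/-. Of mature DC thinned to 2000 UMIs, 83.7% and 78.3% held a Bhlhe40 UMI (89.6% and 87.5% before), against 23.1% and 31.1% of B cells (23.3% and 34.2% before).

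Batf3 and Zbtb46 were both highest in mature DC, the cells that migrate to lymph nodes, and not in cDC1 or cDC2. Batf3 gave 173 CPM (156 to 191) and 156 CPM (139 to 174) in mature DC and 97.5 CPM (86.8 to 109) and 108 CPM (93.5 to 123) in cDC1, and the gap was beyond counting error in both libraries. cDC2 had 26.5 and 25.9 CPM, in the range of monocytes. T cells gave 11.1 and 14.4 CPM. Retnla macrophages followed, with 81.3 CPM (58.0 to 111) and 62.4 CPM (38.1 to 96.4) on 21 cells each. In cells thinned to 2000 UMIs a Batf3 UMI was found in 26.5% and 24.3% of mature DC, 16.7% and 19.5% of cDC1, 9.15% and 3.68% of cDC2 and 2.53% and 2.57% of T cells. The unthinned shares were 57.1% and 53.2%, 44.3% and 54.5%, 14.2% and 16.2%, and 6.50% and 7.55%.

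The stretch at the start of Batf3 is shown because Batf3 is the cDC1 factor and the mature DC maximum above is a difference of its transcript. In the RefSeq table of GRCm38.p6 the window of 250 bases before and 50 bases after the start is chr1:191098164-191098463, on the plus strand. Capitals mark the match to the E-box CACGTG, the letters that basic helix-loop-helix factors such as Bhlhe40 bind, whose first base lies 247 bases before the start. The window lies inside the gene as GENCODE places it, downstream of the first base given above, so the annotations differ in where Batf3 starts.

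Batf3: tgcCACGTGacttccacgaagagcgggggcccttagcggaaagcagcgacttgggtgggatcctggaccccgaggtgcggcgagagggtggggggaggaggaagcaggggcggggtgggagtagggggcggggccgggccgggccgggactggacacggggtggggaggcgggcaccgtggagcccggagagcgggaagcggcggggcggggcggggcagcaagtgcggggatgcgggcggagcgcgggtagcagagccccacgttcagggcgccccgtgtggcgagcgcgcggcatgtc

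This E-box was found in 7.15% of 32851 promoter windows of that length, so its presence is a description of the sequence. RefSeq windows were matched for 5 of the 9 genes: Batf3, Cebpa, Cebpb, Zbtb46 and Id2. The letters searched on both strands were GAGGAAGT for PU.1 (3.20% of all windows, 0 of the 5), TTGCNNAA for C/EBP (10.8%, 0 of the 5) and TGANTCA for AP-1 (7.81%, Zbtb46 alone, whose RefSeq window lies inside the GENCODE gene), and the NF-kB consensus was searched too (1.47%, 0 of the 5). No other of these motifs was found in the window shown. The absence of a match says nothing of the factor.

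Zbtb46 had the largest fold of its leading group among the 9 genes after Tcf4. Mature DC gave 172 CPM (155 to 190) and 140 CPM (124 to 158), 8.87-fold and 6.10-fold above the other myeloid and dendritic groups together. cDC1 had 60.3 and 73.3 CPM and cDC2 70.9 and 73.2 CPM, not apart from each other in either library. No monocyte or macrophage group exceeded 21.8 CPM, and classical monocytes gave 6.32 and 8.61 CPM, under the 14.1 and 10.2 CPM of T cells. pDC held 1 and 5 UMIs. In thinned cells the share with a UMI was 28.1% and 21.7% in mature DC, 9.25% and 14.9% in cDC1, 13.4% and 13.7% in cDC2 and 1.96% and 1.45% in T cells. Unthinned, these were 56.6% and 49.8%, 37.5% and 43.0%, 29.7% and 34.3%, and 7.44% and 6.46%. Batf3 and Zbtb46 were found together in 37.3% and 31.9% of mature DC, 24.6% and 27.0% of cDC1 and 5.16% and 7.14% of cDC2, and in 8.17% and 4.12% of mature DC after thinning. If the genes were independent in thinned mature DC, 7.44% and 5.29% would hold both.

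The factors that work beside them divided the dendritic groups further. Of 10 partners of the conventional dendritic lineage, Relb, the NF-kB subunit of dendritic cell maturation, gave 399 and 438 CPM in mature DC and 35.5 and 38.0 CPM in cDC1. Relb, Zfp366 (96.8 and 113 CPM) and Etv3 (1070 and 1015 CPM) were higher in mature DC by a fold of 2 or more in both libraries and Id3, Batf and Batf2 were lower, where 7.87% of all genes were higher and 18% lower. In cDC1, Zfp366 (88.4 and 95.7 CPM) was higher and Id3 and Relb were lower, against 4.61% and 10.6% of all genes. The groups that cDC1 were set against include mature DC, where Relb was high. In cDC2 the only partner past this fold was Irf4, the factor needed for that subset (142 and 124 CPM), where 1.57% of all genes were higher and 5.3% lower. Irf8, the partner of Batf3, gave 1529 and 1600 CPM in cDC1, 1097 and 1254 CPM in mature DC and 2443 and 2128 CPM in pDC.

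Genes that depend on Batf3 and Irf8 in cDC1 did not follow Batf3 into mature DC. All 4 that could be compared and were not gate markers, Cd24a, Itgae, Ifi205 and Ppt1, were higher in cDC1, where 4.61% of all genes were, with a median log2 fold of 3.05 and 2.77 against -0.04 and 0.02 for all genes. In mature DC 3 of these 4, Itgae, Ifi205 and Ppt1, were lower and none higher, where 18% of all genes were lower and 7.87% higher, with a median of -3.06 and -2.01. The groups that mature DC were set against include cDC1, where these genes are high. These folds thus do not place mature DC against the remaining groups. Itgae, the CD103 integrin chain, gave 540 and 320 CPM in cDC1 and 7.66 and 8.72 CPM in mature DC. T cell markers summed to 367 and 282 CPM in mature DC and to 405 and 240 CPM in cDC2, with none of the 6 at 0, and the part of T cell RNA in these levels was not tested.

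Id2 and Tcf4 had opposite extremes among the dendritic groups. Id2 was highest in mature DC, with 2262 CPM (2200 to 2325) and 2154 CPM (2090 to 2220), and lowest in pDC, with 141 CPM (105 to 186) and 112 CPM (75.8 to 160). Tcf4 was highest in pDC, with 1906 CPM (1766 to 2054) and 1850 CPM (1691 to 2021), and stood at 35.2 and 44.2 CPM in cDC1. The pDC level of Tcf4 was 21.5-fold and 16.4-fold that of the other myeloid and dendritic groups together. For Id2, Vegfa macrophages came next (1177 and 1300 CPM) and then cDC1 (854 and 866 CPM), each step beyond counting error in both libraries. NK cells, which need Id2, gave 1125 and 994 CPM, T cells 757 and 663 CPM and B cells 258 CPM (191 to 341) and 107.6 CPM (66.6 to 164). Id2 in pDC was thus below its B cell level in the Irg1+/+ library and level with it in the other. B cells, which use E proteins, also held Tcf4, at 294 and 405 CPM, and T cells gave 30.2 and 30.6 CPM.

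cDC2 stood between the extremes for both genes. They gave 409 CPM (372 to 450) and 344 CPM (315 to 375) of Id2 and 226 CPM (198 to 256) and 227 CPM (204 to 252) of Tcf4. Among the 16 myeloid and dendritic groups this was the highest Tcf4 level after pDC in both libraries. The number of Id2 UMIs for each Tcf4 UMI, in which gene length cancels between groups, was 0.0741 and 0.0607 in pDC, 1.81 and 1.51 in cDC2, 24.2 and 19.6 in cDC1 and 21.9 and 21.3 in mature DC. It was 0.875 and 0.266 in B cells. Classical monocytes had 2.75 and 2.04.

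**Figure D2:**
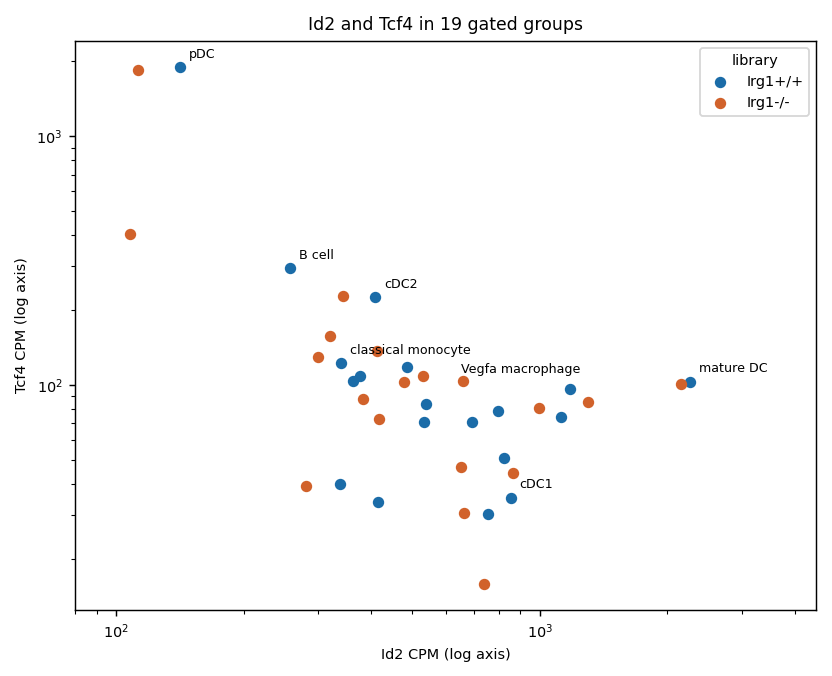
Tcf4 level (y axis, CPM) against Id2 level (x axis, CPM, both log axes) in 16 myeloid and dendritic groups and in T, NK and B cells, 1 point for each group and library (blue, Irg1+/+, orange, Irg1-/-). pDC lie at the top left at 1906 and 1850 CPM of Tcf4, mature DC at the far right at 2262 and 2154 CPM of Id2, and cDC2 between pDC and cDC1.

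UMIs of both genes were found in some cells. Of pDC thinned to 2000 UMIs, 69.6% and 73.3% held Tcf4 alone, 21.4% (11.6 to 34.4) and 20% (9.58 to 34.6) held both, 1.79% and 0% (0 of 45 cells, which allows up to 7.87%) Id2 alone and 7.14% and 6.67% neither. If they were independent, 21.1% and 18.7% would hold both. Since the Id2 level of pDC was not above that of B cells, a cell with UMIs of both is not shown to express both. Unthinned, 45.0% and 52.1% of pDC held both. Thinned mature DC held Id2 alone in 76.5% and 80.5% and both in 16.3% and 12.4%. cDC1 held Id2 alone in 69.6% and 67.2% and Tcf4 alone in 2.64% and 3.45%. Among the 4 dendritic groups cDC2 were the most evenly split between cells with 1 gene and cells with the other, with Id2 alone in 33.1% and 26.8%, Tcf4 alone in 16.2% and 19.5% and both in 11.3% and 10.5%.

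**Figure D3:**
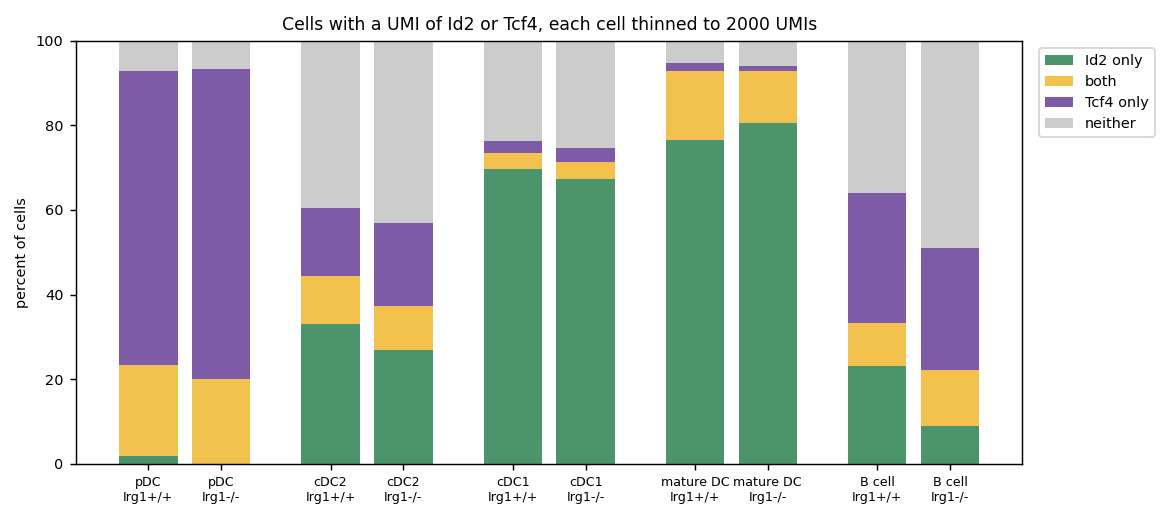
Percent of cells (y axis) with a UMI of Id2 alone (green), of both (yellow), of Tcf4 alone (purple) or of neither (grey) after each cell was thinned to 2000 UMIs, for 4 dendritic groups and B cells in both libraries (x axis). Tcf4 alone takes 69.6% and 73.3% of pDC, and Id2 alone 76.5% and 80.5% of mature DC.

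Partners and linked genes of Tcf4 were high in pDC as well. Of 7 partner factors, Spib (706 and 966 CPM), Runx2 (934 and 948), Bcl11a (388 and 446) and Tcf12 (271 and 292) were higher by a fold of 2 or more in both libraries and none was lower, where 9.95% of all genes were higher and 11% lower. All 8 linked genes that were not gate markers were higher: Bst2, Ly6d, Spib, Bcl11a, Runx2, Tlr7, Tlr9 and Cd300c. The median log2 fold of these 8 was 4.63 and 4.14, against 0.08 and 0.10 for all genes. Tlr7 and Tlr9, the nucleic acid sensors of pDC, gave 382 and 420 CPM and 63.7 and 67.4 CPM. Spib, Bcl11a and Runx2 stand in both lists, so these counts are not independent of each other. T cell markers summed to 349 and 251 CPM in pDC, against 405 and 240 CPM in cDC2. Over 9 lymphocyte transcripts, however, the median pDC held 18.0 and 15.4 UMIs in 10000, against 4.97 and 3.58 in cDC2. The most abundant was Ighm, the immunoglobulin heavy chain gene (1418 and 1386 CPM), while the B cell markers Cd79a and Ms4a1 had 0 UMIs in the pDC of both libraries.

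Across 14 groups with at least 30 cells in each library, the 9 genes fell into a few like patterns. As a description over these groups, which share their libraries, Pearson correlations of log2 CPM were 0.78 and 0.92 for Cebpa and Maf and 0.78 and 0.70 for Batf3 and Zbtb46. They were -0.66 and -0.67 for Maf and Bhlhe40 and -0.61 and -0.78 for Cebpb and Zbtb46. The values of -0.74 in both libraries for Spi1 and Tcf4 and of -0.50 and -0.58 for Id2 and Tcf4 rested on pDC. Over the 13 groups without pDC, a choice made after seeing the data, they were 0.27 and -0.12 for Spi1 and Tcf4 and -0.02 and -0.22 for Id2 and Tcf4. Over 17 groups, the genes of 10619 with the profile most like each member in both libraries were Csf2ra for Spi1 (r of 0.91 and 0.97), Cmtm3 for Cebpa (0.92 and 0.95), Tgm2 for Cebpb (0.93 in both), Msr1 for Maf (0.89 and 0.93) and Tes for Bhlhe40 (0.80 and 0.85). They were Psme2 for Batf3 (0.82 and 0.80), Avpi1 for Zbtb46 (0.91 and 0.90), Ndrg1 for Id2 (0.75 in both) and Rnf122 for Tcf4 (0.87 and 0.86). With a pseudocount of 1 in place of 10 CPM, 1 to 3 of the top 3 genes were shared for each member, and another gene led for Cebpa (Sdc3, with Cmtm3 no longer among the 3), Batf3 (Itm2c), Zbtb46 (Sri) and Tcf4 (Tsc22d1).

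The libraries were then compared group by group, with the share of each group held the same in both. No member differed by a fold of 1.5, where 6.19% of 11308 genes did. Bhlhe40 was lower in the library labelled Irg1-/-, at a log2 ratio of -0.24 (-0.29 to -0.18), and lower in 13 of 14 groups, with the counting interval below 0 in 8 and above 0 in none. Id2 was lower by a smaller amount, -0.11 (-0.15 to -0.08), in 10 of 14 groups, with 8 intervals below 0 and 3 above. Cebpb and Maf were higher, at 0.19 (0.15 to 0.24) and 0.19 (0.13 to 0.24). Tcf4 gave 0.11 (0.03 to 0.20), Cebpa 0.09 (-0.01 to 0.19), Spi1 0.07 (0.01 to 0.13), Batf3 0.03 (-0.10 to 0.16) and Zbtb46 -0.04 (-0.20 to 0.12). With 1 library on each side, the spread between animals is unknown and may be larger than any of these.

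**Figure D4:**
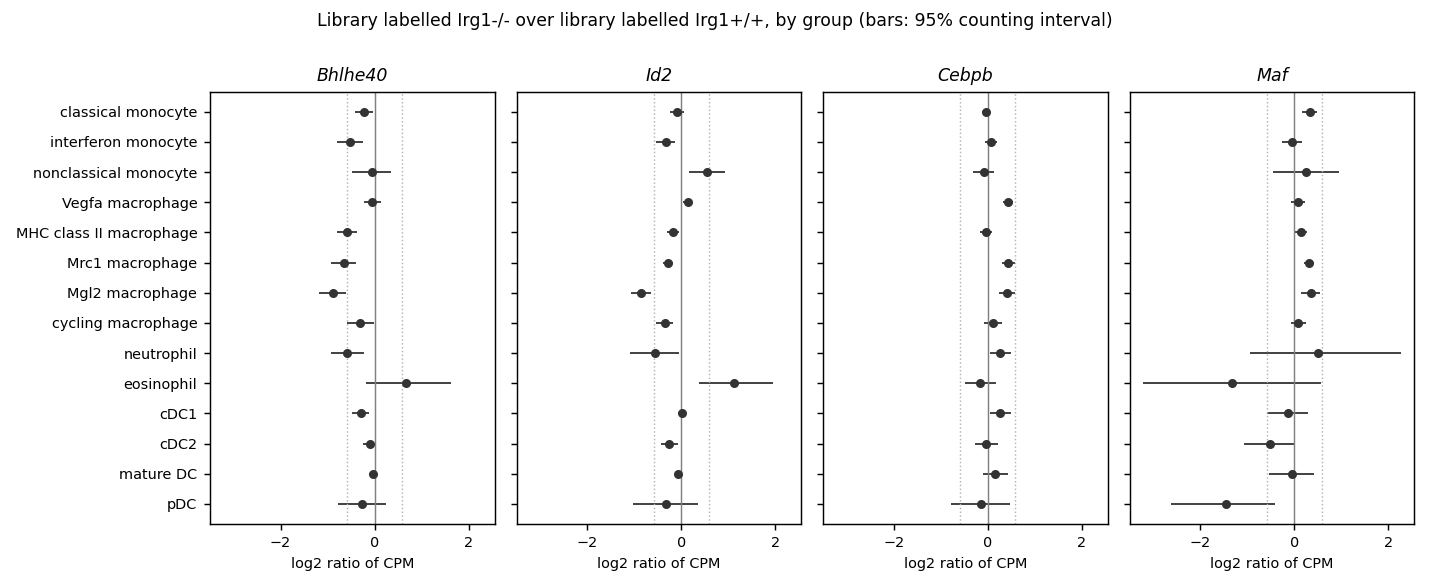
Log2 ratio of CPM, library labelled Irg1-/- over Irg1+/+ (x axis), of Bhlhe40, Id2, Cebpb and Maf in the 14 groups with at least 30 cells in each library (y axis). Bars are 95% counting intervals and dotted lines a fold of 1.5. Bhlhe40 lies left of 0 in 13 of 14 groups, and Id2 runs from -0.86 in Mgl2 macrophages to 1.12 in eosinophils.

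Bhlhe40 was lower past a fold of 1.5 in Mgl2, Mrc1 and MHC class II macrophages. In Mgl2 macrophages it had 401 CPM in the Irg1+/+ library and 217 CPM in the library labelled Irg1-/-, a log2 ratio of -0.89 (-1.19 to -0.60). In Mrc1 macrophages it had 189 and 119 CPM (-0.66, -0.92 to -0.40), and in MHC class II macrophages 254 and 168 CPM (-0.59, -0.81 to -0.38). For these 3 groups the lower levels were not above that of B cells beyond counting error (215 CPM, against 116 CPM in the Irg1+/+ library, 0.90, 0.12 to 1.71). Vegfa macrophages, at 389 and 377 CPM, and mature DC, at 1016 and 989 CPM, did not differ between the libraries beyond counting error. Neutrophils had 914 and 611 CPM (-0.58, -0.92 to -0.23) and interferon-activated monocytes 237 and 164 CPM (-0.53, -0.80 to -0.26). Lyve1 macrophages, too few to enter the 14 groups, went the other way, at 93.2 CPM on 18 cells and 213 CPM on 53 cells (1.19, 0.55 to 1.90). With group shares held, 2 of the 20 partner factors of monocytes and macrophages passed a fold of 1.5, against 6.19% of all genes. Spic was higher and Bhlhe41, the paralog of Bhlhe40, lower, with 58.8 and 20.6 CPM of Bhlhe41 in Mrc1 macrophages.

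Id2 was lower in most macrophage groups of the library labelled Irg1-/- and higher in Vegfa macrophages. It had 691 and 382 CPM in Mgl2 macrophages (-0.86, -1.08 to -0.64) and 799 and 657 CPM in Mrc1 macrophages (-0.28, -0.40 to -0.17), but 1177 and 1300 CPM in Vegfa macrophages (0.14, 0.05 to 0.24). In MHC class II macrophages Id2 had 539 and 477 CPM (-0.18, -0.31 to -0.04) and in cycling macrophages 534 and 418 CPM (-0.35, -0.53 to -0.18), but after thinning these ratios turned to 0.039 and 0.34. Retnla macrophages, on 21 cells each, had 825 and 652 CPM (-0.34, -0.59 to -0.09). Cebpb was higher in the library labelled Irg1-/- in Vegfa (704 and 949 CPM), Mrc1 (376 and 510 CPM) and Mgl2 macrophages (594 and 791 CPM), with log2 ratios of 0.43, 0.44 and 0.41, and level in MHC class II macrophages (564 and 548 CPM). In Retnla macrophages it was lower, at 607 and 412 CPM (-0.56, -0.87 to -0.26). Maf was higher in Mrc1 macrophages (0.30, 0.19 to 0.41), Mgl2 macrophages (0.34, 0.14 to 0.55), classical monocytes (0.32, 0.17 to 0.47) and Retnla macrophages (0.77, 0.40 to 1.13), and lower in Lyve1 macrophages (-0.45, -0.66 to -0.22) and in pDC on 37 and 10 UMIs (-1.45, -2.63 to -0.42). Spi1 in pDC, on 18 and 30 UMIs, was higher (1.17, 0.28 to 2.10). Both pDC ratios are on fewer than the 50 UMIs asked of a gene in the counts past a fold of 1.5. Maf in Mrc1 macrophages turned to -0.22 where clusters were used in place of gates, and Bhlhe40 and Cebpb there shrank to -0.16 and 0.07. With group shares held, of the 5 Maf-linked genes that could be compared none was higher and Gas6 and Stab1 were lower past a fold of 1.5 (6.19% of all genes passed). In cycling macrophages 4 of the 5 were lower (12.4% of all genes), with a median log2 ratio of -1.12.

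Read against all genes, the members did not stand out in most groups. None of 8 members tested passed a fold of 1.5 in classical monocytes, where 8.18% of genes did, none of 8 in interferon-activated monocytes (8.48%), none of 6 in nonclassical monocytes (12.1%), none of 7 in Vegfa macrophages (8.39%) and none of 8 in cycling macrophages (12.4%). In MHC class II macrophages 2 of 8 passed (6.64% of genes), Batf3 upward on 54 and 115 UMIs and Bhlhe40 downward. In Mrc1 macrophages Bhlhe40 passed, 1 of 8 (11.8%), and in Mgl2 macrophages Bhlhe40 and Id2, 2 of 8 (17.5%). None of 4 passed in neutrophils (22.5%), and 2 of 4 in eosinophils (18.1%), Bhlhe40 and Id2 upward. Among dendritic groups 1 of 9 passed in cDC1 (9.09%), Cebpa at 25.8 and 43.7 CPM (a log2 ratio of 0.76, but -0.086 after thinning), and none of 9 in cDC2 (10.2%), of 9 in mature DC (8.53%) or of 4 in pDC (10.8%). In all, 8 of 100 member and group pairs passed.

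Other transcripts differed between the libraries beside these genes. The 16 dissociation stress genes had a median log2 ratio of 0.24 with group shares held, against -0.03 for all genes, and none passed a fold of 1.5 by that measure. Within groups their median was 0.59 in neutrophils, 0.43 in cDC1, 0.35 in classical monocytes and 0.21 in eosinophils. Among macrophages it was 0.26 in the Vegfa group, 0.24 in Mgl2, 0.21 in cycling, 0.10 in Mrc1 and 0.04 in MHC class II macrophages. Past a fold of 1.5 in neutrophils 8 of 15 were higher and 1 lower (22.5% of all genes passed in either direction). In Mgl2 and in Mrc1 macrophages 4 of 16 were higher and 2 lower (17.5% and 11.8% of all genes). In cDC1 3 of 16 were higher (9.09%), in classical monocytes 2 of 16 (8.18%) and in eosinophils 3 of 12 (18.1%). In cDC2 7 of 16 were higher and 3 lower (10.2%, median 0.53), and in nonclassical monocytes 7 of 16 were higher (12.1%, median 0.44). pDC went the other way, with 6 of 15 lower and none higher (10.8%, median -0.17). Of 6 melanocyte markers 5 were lower past a fold of 1.5, with a median of -1.23, and of 7 lymphocyte transcripts Cd3d, Cd3e and Cd3g were lower. Median depth was lower in the library labelled Irg1-/- in Mrc1 macrophages (14071 and 10583.5 UMIs per cell) and in Mgl2 macrophages (6947.5 and 5275). So it was in Retnla (25735 and 14185), cycling (17548.5 and 14047.5), Lyve1 (11159 and 9737) and Vegfa macrophages (6306 and 5741). MHC class II macrophages went the other way (7046 and 8096). The part of these differences in the ratios of Bhlhe40, Id2, Cebpb and Maf was not tested. Of the partner lists, none of the 10 conventional dendritic factors and 1 of the 7 pDC factors, Irf7, passed a fold of 1.5 between the libraries with group shares held, where 6.19% of all genes did. None of the 14 PU.1 targets or the 6 C/EBP targets did, and of the 5 genes of Batf3 and Irf8 only Itgae did, downward. Within single groups some C/EBP targets passed, with 4 of 4 lower in pDC (median -1.21, where 10.8% of all genes passed) and 2 of 5 higher in neutrophils (22.5%). In interferon-activated monocytes 2 of 5 were lower (8.48%). Mgl2 macrophages had 1 of 5 lower (17.5%) and Mrc1 macrophages 1 of 4 higher (11.8%). Eosinophils had 1 of 3 higher and 1 lower (18.1%). Genes of other lists passed in single groups too. In classical monocytes 3 of 6 pDC factors were higher (8.18%). In Mrc1 macrophages 5 of 20 monocyte and macrophage factors were higher and 1 lower (11.8%). In pDC 2 of 12 PU.1 targets were lower (10.8%).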

How the data were processed

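Raw UMI counts per gene and cell of 2 libraries were deposited by the authors and used as counts. The methods name fastp for trimming, a UMI-tools whitelist of barcodes and STAR alignment, with the mouse reference of Ensembl 100. The submitters' processing notes name GRCm38, CASAVA 1.8, UMI-tools and Seurat. The tables held 6408 and 5896 cells with 43617546 and 36432067 UMIs, all with over 200 genes. Cells with 10% or more mitochondrial UMIs were left out (124 and 102), then 13 mitochondrial genes.

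Cells were gated by marker genes, scaled by their top 50 cells, with a class score of at least 0.25 and a lead of 0.05, and by state scores of at least 0.5 with a lead of 0.1 and 2 markers detected. Members and lists were chosen with earlier results of these data known. UMIs were summed by group and scaled to CPM, with Poisson intervals of the exact kind. Ratios carry exact conditional binomial intervals and shares Clopper-Pearson intervals. A level of 0 UMIs allows 3 counts. Ratios across groups took the UMI shares of the Irg1+/+ groups as weights in both libraries, with intervals from the Poisson variance on the log scale. Genes needed 50 UMIs over both libraries to enter the counts past a fold between libraries, while ratios of members were taken on fewer too. Comparisons between groups needed 200, and folds used a pseudocount of 0.5 UMI. PCR copies are removed by UMIs, but intervals cover counting error only. Named genes were the 9 members, the genes of the lists that passed a fold of 2 in both libraries or of 1.5 between them, and the gene most like each member. The design assumed counts and was kept. Clusters (scanpy 1.11.5, Leiden at resolution 2, 34 clusters) and TMM scaling (edgeR 4.0.16) served as alternatives, with a stricter gate (0.35, 0.1, 0.8, 0.2), cells of over 500 genes and under 5% mitochondrial UMIs, thinned cells, the mean of each cell's CPM and the top 5% of doublet scores left out. The scripts were tested on simulated data. Promoters came from RefSeq and positions from GENCODE.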

Additional observations from a re-analysis of the deposited data

Results flagged for a closer look

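Among the 14 groups with at least 30 cells in each library, 2 members differed between the libraries in opposite directions in different groups, with counting intervals on opposite sides of 0. For Maf the log2 ratio, library labelled Irg1-/- over Irg1+/+, was 0.30 in Mrc1 macrophages (-0.22 with clusters in place of gates) and -1.45 in pDC, the latter on 37 and 10 UMIs, under the minimum of 50 used for counts of genes past a fold. It is the 1 interval of Maf below 0 in these groups, so the opposite direction among them rests on it. For Id2 it was 1.12 in eosinophils, on 17 and 93 UMIs (0.36 with clusters in place of gates), and -0.86 in Mgl2 macrophages, on 1027 and 208 UMIs. Outside these groups Maf was lower in Lyve1 macrophages (-0.45, -0.66 to -0.22), on 263 and 493 UMIs. Bhlhe40 was higher in Lyve1 macrophages (1.19, 0.55 to 1.90), on 23 and 134 UMIs, and Cebpb lower in Retnla macrophages (-0.56, -0.87 to -0.26). The difference between groups was not tested, since each side is 1 library.

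Cells in no gate, which entered no comparison, held every member above the limit that a count of 0 allows. Over both libraries they gave 266 CPM of Spi1, 81.7 of Cebpa, 534 of Cebpb, 252 of Maf and 479 of Bhlhe40. They gave 33.3 CPM of Batf3, 25.7 of Zbtb46, 675 of Id2 and 113 of Tcf4. T cells, by comparison, gave 73.5 and 77.3 CPM of Spi1.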

How the results depend on the processing

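The highest group was the same under all 7 settings in both libraries for Tcf4 (pDC) and for Id2, Batf3 and Zbtb46 (mature DC). Bhlhe40 was highest in mature DC in 6 of 7 settings in the Irg1+/+ library, where neutrophils led by the mean of each cell's CPM, and in 7 of 7 in the other. Spi1, Cebpa, Cebpb and Maf changed their leading group under at least 1 setting in at least 1 library.

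The sign of 6 ratios between the libraries changed. After thinning, Spi1 in cycling macrophages gave -0.062, Cebpa in cDC1 -0.086 and Id2 0.039 in MHC class II and 0.34 in cycling macrophages. With clusters in place of gates, Maf in Mrc1 macrophages gave -0.22 and Tcf4 there -0.016. The cause was not tested.

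With group shares held, clusters gave log2 ratios of 0.145 (Cebpb), 0.061 (Maf) and 0.17 (Batf3), the stricter gate 0.11 (Maf), thinning 0.27 (Maf) and the mean of each cell's CPM 0.028 (Tcf4). The log2 folds of the leading groups kept their sign in every setting that gave a value. With clusters they were 0.85 (Cebpa, Irg1+/+), 1.95 and 1.64 (Cebpb), 1.87 (Bhlhe40, Irg1-/-) and 1.58 and 1.97 (Id2). By the mean of each cell's CPM they were 1.40 (Cebpa, Irg1+/+), 1.63 (Maf, Irg1-/-), 1.62 and 1.74 (Bhlhe40), 2.39 (Batf3, Irg1+/+), 3.56 and 2.92 (Zbtb46) and 1.87 and 2.16 (Id2). With the stricter gate they were 1.47 (Maf, Irg1-/-), 1.93 and 2.14 (Bhlhe40) and 1.83 and 2.16 (Id2). Thinned, they were 1.09 (Cebpb, Irg1-/-, 4 cells), 2.22 (Batf3, Irg1-/-), 1.82 and 2.13 (Id2) and 4.24 (Tcf4, Irg1+/+). Without the top 5% of doublet scores Id2 in the library labelled Irg1-/- gave 2.12. A minimum of 200 UMIs left 4 of 73 member and group pairs past a fold of 1.5 in place of 8 of 100. The share of all genes at that minimum was not taken, so this fall cannot be read against all genes.

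No paired analysis was possible because each genotype has 1 library, and for the same reason no library was left out. Thinning gave no value for Irg1+/+ eosinophils, and clusters none for nonclassical monocytes or the Lyve1, Mgl2 and Retnla macrophages. Depth per cell limits the granulocytes most, and few UMIs in all limit nonclassical monocytes, pDC and the Lyve1 and Retnla macrophages. Cebpa in neutrophils and eosinophils, Spi1, Batf3 and Zbtb46 in pDC and every ratio on fewer than 50 UMIs are uncertain. The part of free RNA in the level of any member was not tested, and the spread between mice is unknown.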
